A study of Arabidopsis thaliana with 72 samples.

Results

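Transcripts of 6 copper-linked genes were followed in roots and shoots of Arabidopsis thaliana seedlings after t-chalcone. The genes are the metal reductases FRO4 (AT5G23980) and FRO5 (AT5G23990), the copper transporter COPT2 (AT3G46900), the iron superoxide dismutase FSD1 (AT4G25100), and the copper and zinc superoxide dismutases CSD1 (AT1G08830) and CSD2 (AT2G28190). They were chosen by identifier, and all 6 were among the 22884 genes of the deposited table. In roots, FRO4 and FRO5 fell after 1 h and 3 h of t-chalcone, and COPT2 fell at 1 h. None of the 6 passed the test in roots at 6, 12 or 24 h, or in shoots at any time.

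Seedlings were 14 days old and had grown on agar plates under days of 16 h light with 8 h nights. Treatment began 7 h into the light period. The t-chalcone groups received 8 mL per plate at 21 µM, for 1, 3, 6, 12 or 24 h. This compound is an unsaturated aromatic ketone, the parent structure of the chalcones from which plants make flavonoids. The control groups received 0.1% ethanol (EtOH) and were sampled at 0 h and at the same times. By that schedule the 12 h samples fall in the dark period and the 24 h samples at the clock time of 0 h. Neither a genotype nor the solvent of t-chalcone is named in the sources used. RNA sequencing of whole roots and whole shoots gave 66 libraries, 3 for each of 22 combinations of tissue, treatment and time. At 0 h the untreated columns held the same values as the EtOH columns, so each pair counts once, under EtOH. The labels do not tie replicates to separate plates, and p-values therefore measure only the spread between these samples, possibly a technical one.

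Plants take up copper as the reduced ion. In roots, FRO4 and FRO5 are plasma membrane reductases that reduce cupric ions at the surface, and COPT2 carries the reduced ion into the cell. When copper is scarce, the transcription factor SPL7 binds GTAC motifs and raises these 3 genes, FSD1 and the microRNA miR398. The miR398 then lowers CSD1 in the cytosol and CSD2 in the plastid, so that superoxide is removed by the iron enzyme FSD1 and copper is spared. When copper is ample, the copper enzymes rise and FSD1 and the uptake genes fall.

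The 250 bases before the annotated start of the 3 uptake genes and of FSD1 are shown because the uptake genes fell together and because copper represses all 4 genes through SPL7. They come from the RefSeq TAIR10.1 assembly, whereas the deposited table names TAIR10. In the FRO4 and FRO5 windows, capitals mark the exact runs of 9 or more bases that both hold. In the FSD1 window, capitals mark GTAC, the core letters of the SPL7 site, which reads the same on both strands. FRO4 lies at chr5:8097978-8101330 on the minus strand and its window at chr5:8101331-8101580. FRO5 lies at chr5:8105461-8108642 on the minus strand and its window at chr5:8108643-8108892. COPT2 lies at chr3:17268700-17269510 on the plus strand and its window at chr3:17268450-17268699. FSD1 lies at chr4:12884300-12887011 on the minus strand and its window at chr4:12887012-12887261.
FRO4: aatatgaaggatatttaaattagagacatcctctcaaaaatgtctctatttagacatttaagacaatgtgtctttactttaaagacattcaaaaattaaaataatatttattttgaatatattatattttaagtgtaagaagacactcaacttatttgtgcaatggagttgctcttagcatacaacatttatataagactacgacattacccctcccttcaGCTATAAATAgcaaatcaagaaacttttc
FRO5: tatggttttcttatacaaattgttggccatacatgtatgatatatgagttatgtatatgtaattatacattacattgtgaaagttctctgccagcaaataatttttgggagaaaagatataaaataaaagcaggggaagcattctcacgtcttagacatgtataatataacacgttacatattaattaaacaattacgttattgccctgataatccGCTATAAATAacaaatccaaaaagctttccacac
COPT2: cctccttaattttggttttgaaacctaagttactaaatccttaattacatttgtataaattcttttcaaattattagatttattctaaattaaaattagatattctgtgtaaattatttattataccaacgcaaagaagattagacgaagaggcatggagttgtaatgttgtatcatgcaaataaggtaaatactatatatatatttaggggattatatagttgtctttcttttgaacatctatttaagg
FSD1: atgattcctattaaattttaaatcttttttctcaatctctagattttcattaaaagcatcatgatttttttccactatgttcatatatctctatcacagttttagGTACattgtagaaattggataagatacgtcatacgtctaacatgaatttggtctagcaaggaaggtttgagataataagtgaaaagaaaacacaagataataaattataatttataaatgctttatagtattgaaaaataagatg
FRO4 and FRO5 are neighbours on the same strand, 4130 bases apart. Their coding sequences of 2100 bases each were 92.6% identical when aligned, and 5.66% of the 50-base windows of FRO5 occur exactly in FRO4, so the pair may share some reads. Their upstream windows shared a single run of 10 bases. GTAC occurred once in the FSD1 window, 145 bases before the start, and was not in the windows of FRO4, FRO5, COPT2 or CSD2. The CSD1 window, chr1:2826810-2827059 on the plus strand, held it at 11 and at 7 bases before the start. Of 22698 genes with such a window, 34.7% held GTAC at least once and 7.85% at least 2 times. Over 1000 bases, FRO5 held 3 matches, CSD1 2, FRO4, COPT2 and FSD1 1 each, and CSD2 0, against a median of 2 over all genes. A match of 4 letters describes the window and is not a measured site.

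The letters that tie CSD1 and CSD2 to miR398 are shown next, read from the same assembly 5′ to 3′. In the microRNA, capitals mark the seed, bases 2 to 8. In the target sites, capitals mark bases that form Watson-Crick pairs with the microRNA. The microRNA lies at chr5:4691107-4691127 on the plus strand.
miR398b-3p: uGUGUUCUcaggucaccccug
CSD1: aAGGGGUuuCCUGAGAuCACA
CSD2: ugcGGGUGACCUGgGAAacau
The CSD1 site lies in the 5′ UTR, between chr1:2827177-2827685 on the plus strand with an intron inside that span, and pairs at 17 of 21 bases. The CSD2 site is in coding sequence, at chr2:12015572-12015592 on the plus strand, with 13 such pairs and 3 G-U pairs. The reference annotates both transcripts as cleaved under the direction of miR398. All sites were searched as windows without gaps, and pairing with a gap was not counted for any gene. The best windows of FRO4, FRO5, COPT2 and FSD1 paired at 13 or 14 bases, so such counts alone did not set CSD2 apart from them. CSD1 and CSD2 coding sequences were 65.6% identical and shared no exact 50-base window. The microRNA genes themselves are not in the table used here.

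Values are the authors' counts divided by size factors, called units below. A library's lowest value cannot be told from no reads. Totals of the whole numbers recovered from these values were 0.128 to 22.5 M (mega) in roots, median 10.3 M, and 0.246 to 26.0 M in shoots, median 14.5 M. The 5 libraries under 0.5 M were roots EtOH 0 h replicate 1, roots EtOH 3 h replicate 1, shoots EtOH 12 h replicate 2, shoots EtOH 24 h replicate 3 and shoots t-chalcone 24 h replicate 2. In that order, their lowest values were as high as 27.0, 35.3, 40.5, 20.95 and 17.4 units, against at most 6.58 units in any library over that limit. Markers followed the tissue labels. The summed level of 9 photosynthesis genes was 644 to 6243 units in roots and 153300 to 678800 units in shoots, and that of 10 root genes 40230 to 112700 units in roots and 2568 to 9049 units in shoots.

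In roots after 1 h, the 3 uptake genes were lower with t-chalcone than with EtOH, by 6.93-fold for FRO4, 4.06-fold for FRO5 and 2.92-fold for COPT2. Log2(value + 1) was tested with limma and a mean-variance trend, with p-values adjusted over the 19835 genes tested in roots and a threshold of 0.05. On the same rule 4.61% of all genes tested passed at 1 h, and 3.04% passed and were lower. FSD1, CSD1 and CSD2 did not pass. Fewer cells of a type and less RNA per cell cannot be told apart in whole roots.

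FRO4, the reductase, stood at 85.7, 75.0 and 104.6 units in the 3 t-chalcone roots, against 598.7, 680.4 and 566.1 units in the 3 EtOH roots. Every t-chalcone library lay far below every EtOH library. The log2 difference was -2.79 ± 0.23 (limma's standard error), with an adjusted p of 3.956e-10. FRO4 held its call in all 15 alternative settings at 1 h, with log2 differences of -2.92 to -2.67.

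FRO5, its close copy, stood at 32.3, 26.2 and 40.4 units with t-chalcone, against 121.4, 177.5 and 113.6 units with EtOH. The groups did not overlap. FRO5 differed by -2.02 ± 0.33 (limma adjusted p = 9.143e-05), with a call in all 15 alternatives.

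COPT2, the transporter, stood at 111.0, 101.5 and 137.5 units with t-chalcone, against 349.2, 358.8 and 314.3 units with EtOH. The groups did not overlap. Its log2 difference was -1.55 ± 0.37 (limma adjusted p = 0.00974). The call was lost in 1 of 15 alternatives, that without t-chalcone 1 h replicate 2 (adjusted p = 0.0648).

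The 3 dismutases did not pass at 1 h. FSD1 stood at 2589, 3209 and 2977 units in t-chalcone roots, against 3561, 3766 and 3970 units in EtOH roots, which do not overlap, with a log2 difference of -0.37 ± 0.15 (limma adjusted p = 0.244). CSD2 stood at 729.8, 612.4 and 611.6 units with t-chalcone and 583.0, 503.9 and 523.1 units with EtOH, again without overlap, with a log2 difference of 0.28 ± 0.17 (limma adjusted p = 0.682). CSD1 stood at 1635, 1020 and 1196 units with t-chalcone and 1163, 1062 and 866 units with EtOH, and its groups overlapped (0.30 ± 0.23 on the log2 scale, limma adjusted p = 0.890). Groups did not overlap in 5 of the 6 genes, where 28.4% of all genes tested did the same, so FSD1 and CSD2 are not set apart by it.

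**Figure D1:**
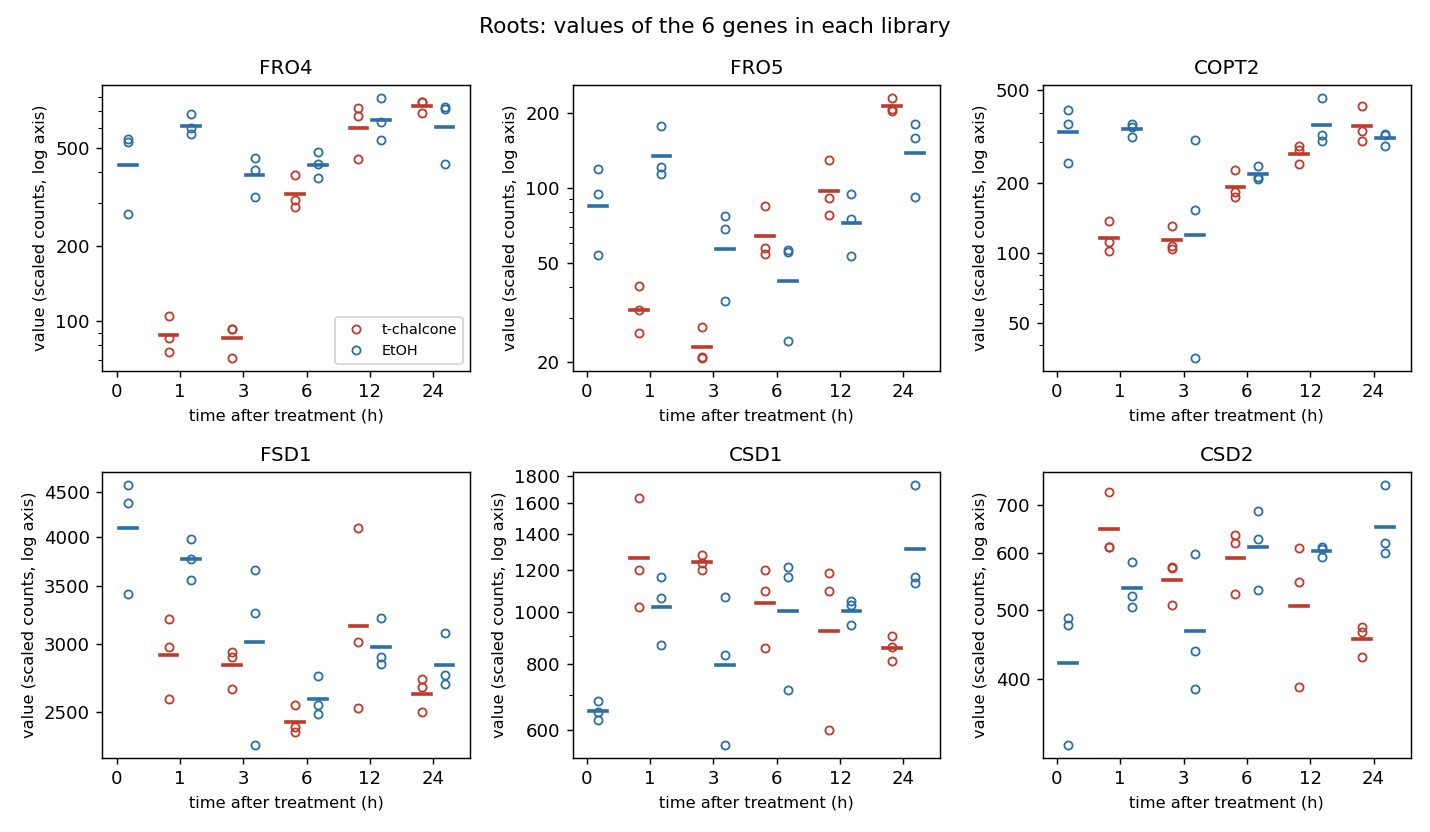
Deposited value (units, logarithmic axis) of each of the 6 genes in every root library by hours after treatment, with t-chalcone left of EtOH and 0 h under EtOH alone. Points are libraries and bars are back-transformed means of log2(value + 1). FRO4 at 1 h lies between 75.0 and 104.6 units with t-chalcone and between 566.1 and 680.4 units with EtOH.

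After 3 h, both reductases were still lower in t-chalcone roots and the transporter could not be judged. FRO4 fell by 2.18 on the log2 scale and FRO5 by 1.28, so 2 of the 6 passed, where 13.6% of all genes passed and 3.26% passed and were lower. The median log2 difference of all genes at 3 h was 0.145, and it was -0.006 after TMM scaling, which rescales libraries by trimmed means. TMM also moved the share of lower genes among those called to 43.4%, against 24.0% without it.

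FRO4 stood at 71.2, 93.1 and 93.4 units with t-chalcone and 317.5, 406.8 and 455.4 units with EtOH at 3 h, with no overlap. The log2 difference of -2.18 ± 0.23 had a limma adjusted p of 8.793e-08 and was -2.33 after TMM scaling. It passed in all 15 alternatives.

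FRO5 stood at 20.8, 27.6 and 21.0 units with t-chalcone and 35.3, 77.2 and 68.2 units with EtOH at 3 h. The EtOH value of 35.3 is the lowest value of the library under 0.5 M, so it may stand for fewer reads or none. FRO5 differed by -1.28 ± 0.33 (limma adjusted p = 0.00952), and -1.62 (limma adjusted p = 0.000875) without the libraries under 0.5 M. The call was lost in 2 of 15 alternatives.

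COPT2 stood at 107.2, 129.8 and 104.0 units with t-chalcone and 35.3, 152.6 and 306.7 units with EtOH at 3 h. The t-chalcone libraries were close together, the EtOH libraries were spread widely, and the groups overlapped because of the same library at its lowest value. COPT2 differed by -0.07 ± 0.37 (limma adjusted p = 0.918). Without the libraries under 0.5 M it was -0.93 (limma adjusted p = 0.00342), and edgeR's quasi-likelihood test gave -1.05 with an adjusted p of 0.000232. Whether COPT2 is called at 3 h depends on that library and on the test used.

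CSD1, the cytosolic copper enzyme, stood at 1200, 1280 and 1236 units with t-chalcone and 564.4, 831.2 and 1068 units with EtOH at 3 h. All t-chalcone values exceeded all EtOH values. The log2 difference of 0.64 ± 0.23 missed the threshold (limma adjusted p = 0.0615), and it passed when EtOH 3 h replicate 3 was left out (0.85, limma adjusted p = 0.0115). It was 0.39 (adjusted p = 0.367) without the libraries under 0.5 M. FSD1 differed by -0.09 ± 0.15 (limma adjusted p = 0.711) and CSD2 by 0.24 ± 0.17 (limma adjusted p = 0.345) on the log2 scale. Groups did not overlap in 3 of the 6 genes at 3 h, where 34.3% of all genes did the same.

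At 6 h the uptake genes of t-chalcone roots no longer differed past the threshold. FRO4 stood at 308.8, 288.2 and 386.3 units with t-chalcone and 479.9, 428.0 and 376.2 units with EtOH, which overlap by 1 library. FRO5 stood at 57.6, 54.5 and 84.6 units with t-chalcone and 24.4, 55.5 and 56.4 units with EtOH. COPT2 stood at 181.7, 173.1 and 226.3 units with t-chalcone and 207.4, 236.0 and 211.8 units with EtOH. The groups overlapped in all 6 genes. FSD1 lay between 2369 and 2549 units with t-chalcone and between 2489 and 2751 units with EtOH, and CSD2 between 526.1 and 635.5 units with t-chalcone and between 532.7 and 686.9 units with EtOH. None of the 6 genes passed limma's test, with log2 differences of -0.39 to 0.59, an adjusted p of 1.0 for each and 0 genes at an unadjusted p under 0.05. edgeR's quasi-likelihood test also called 0 of 6. Of all genes, 0.449% passed at 6 h.

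At 12 h no t-chalcone value of FRO4 lay below 449.6 units, and the groups overlapped. FRO4 stood at 671.9, 449.6 and 719.7 units with t-chalcone and 538.4, 635.2 and 792.5 units with EtOH, and FRO5 at 91.2, 77.6 and 129.9 units with t-chalcone and 53.6, 74.9 and 94.7 units with EtOH. COPT2 alone did not overlap, at 276.9, 287.1 and 239.9 units with t-chalcone and 303.6, 320.6 and 463.8 units with EtOH, where 13.5% of all genes did not. CSD1 and CSD2 each had their lowest t-chalcone value in replicate 3, at 599.7 and 389.8 units, against 943.7 to 1049 units of CSD1 and 593.5 to 612.4 units of CSD2 with EtOH. Limma and edgeR each called 0 of 6, with 0 at an unadjusted p under 0.05 in limma and a lowest adjusted p of 0.780. Of all genes, 0.0302% passed.

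At 24 h CSD1 and CSD2 had lower values in t-chalcone roots and FRO5 higher ones, without a call. CSD2 stood at 473.7, 429.8 and 465.8 units with t-chalcone and 599.7, 620.9 and 747.8 units with EtOH, a log2 difference of -0.52 ± 0.17 (limma adjusted p = 0.102). CSD1 stood at 809.3, 859.7 and 900.1 units with t-chalcone and 1134, 1163 and 1732 units with EtOH, a log2 difference of -0.62 ± 0.23 (limma adjusted p = 0.152). FRO5 stood at 204.0, 207.1 and 230.3 units with t-chalcone and 180.5, 159.6 and 92.2 units with EtOH, a log2 difference of 0.62 ± 0.33 (limma adjusted p = 0.330). In these 3 genes the groups did not overlap, as in 31.9% of all genes, and 26.5% of all genes were lower in this way. FRO4 ranged from 688.2 to 763.2 units with t-chalcone and from 428.7 to 725.9 units with EtOH. COPT2 ranged from 303.5 to 426.7 units with t-chalcone and from 289.4 to 322.8 units with EtOH, and FSD1 from 2500 to 2730 units with t-chalcone and from 2698 to 3087 units with EtOH. Limma called 0 of 6, with 2 at an unadjusted p under 0.05 (CSD1 and CSD2), and edgeR called 0. Of all genes, 1.91% passed.

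CSD2 passed at 24 h in 3 of 14 alternatives, among them that without the libraries under 0.5 M (limma adjusted p = 0.0142). In that setting 12.85% of all genes passed, and 92.8% of those were lower. None of the libraries left out is a 24 h root library, so the log2 difference of CSD2 stayed at -0.52. The median of all genes at 24 h was -0.155 on the log2 scale, and CSD2 was -0.37 (limma adjusted p = 0.173) after TMM scaling, which moved that median to -0.010. TMM also moved the share of lower genes among those called to 73.2%, against 96.8% without it. All 3 t-chalcone libraries at 24 h, and none of the 3 EtOH libraries, carried an S number in place of an index sequence in their descriptions. Depth was split in the same way, at 0.866, 1.833 and 2.194 M with t-chalcone and 14.25, 11.63 and 9.297 M with EtOH. That possible batch, the depth and the treatment cannot be told apart at 24 h in roots.

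**Figure D2:**
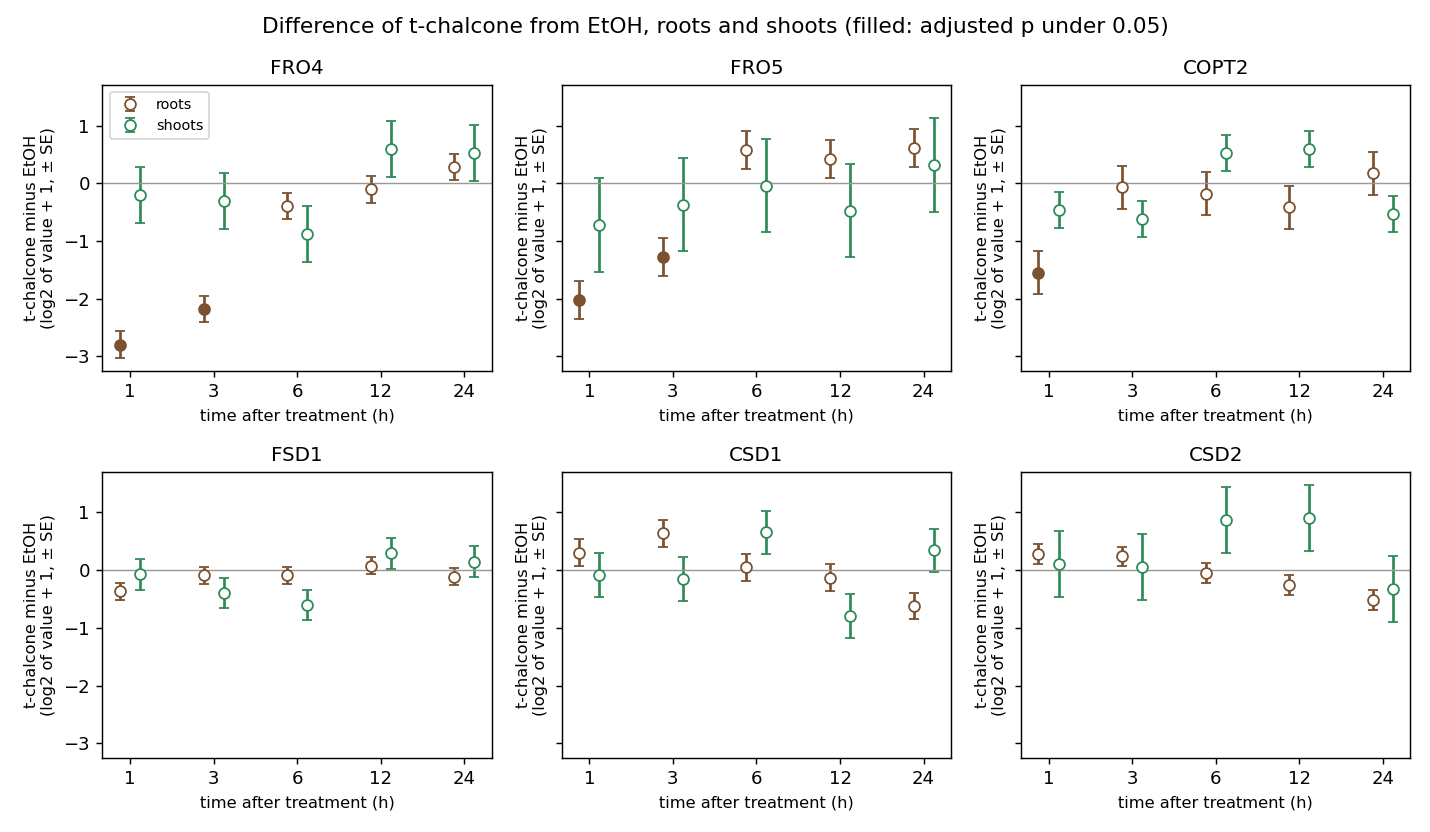
Log2 difference, t-chalcone minus EtOH, of the 6 genes by hours after treatment in roots and in shoots, on the log2(value + 1) scale, with limma's standard error as bars. Filled points have an adjusted p under 0.05. In roots FRO4 is at -2.79 after 1 h, -2.18 after 3 h and -0.39 after 6 h.

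The time course of the response was tested by itself. In roots, the t-chalcone effect differed between times for FRO4 (limma F test, adjusted p = 7.413e-08) and FRO5 (adjusted p = 0.0001906), as it did for 8.21% of all genes. It missed the threshold for CSD1 (adjusted p = 0.0758), CSD2 (0.0882), COPT2 (0.146) and FSD1 (0.584). In CSD1 the log2 difference was 0.64 at 3 h and -0.62 at 24 h. edgeR called 4 of the 6 genes in this test, and limma called 4 without the libraries under 0.5 M. The shares of all genes called in these settings are not given here, so these counts are not read as a result about the 6 genes.

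In shoots the same genes were not called at any time. Limma called 0 of 6 at 1, 3, 6, 12 and 24 h, with 0, 0, 1, 1 and 0 at an unadjusted p under 0.05. edgeR called 0, 0, 1, 0 and 0, where 12.0% of all genes passed its test at 6 h. Of all 22884 genes tested in shoots, 0.0481%, 0.0350%, 1.55%, 0.760% and 1.14% passed limma's test at these times. The effect did not pass a test of differing between times for any of the 6 (limma F test, lowest adjusted p = 0.188 for COPT2, 1 at an unadjusted p under 0.05, against 2.68% of all genes called). edgeR called 1 in that test, and its share of all genes is not given here.

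FRO4 in shoots at 1 h stood at 23.5, 32.6 and 20.9 units with t-chalcone and 37.0, 16.5 and 40.2 units with EtOH, which overlap. FRO4 differed by -0.20 ± 0.49 (limma adjusted p = 1.0), beside -2.79 in roots. The effect in roots minus the effect in shoots was -2.59 ± 0.55, with a limma adjusted p of 0.0279, and 0.118% of all genes passed that test. The call was lost in 8 of 12 fits that each left out 1 library of these groups, with differences of -2.82 to -2.20 and adjusted p-values of 0.0074 to 0.278. No other gene of the 6 passed it at 1 h, and at 3, 6, 12 and 24 h limma called 0 of 6, with 1, 0, 0 and 1 at an unadjusted p under 0.05, while edgeR called 1 at 3 h and 0 at the other times. At those times 0.0655%, 0.201%, 0.149% and 1.31% of all genes passed limma's test, and the shares for edgeR are not given here.

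COPT2 in shoots at 1 h stood at 5.42, 6.12 and 7.27 units with t-chalcone and 7.84, 10.6 and 8.59 units with EtOH. Both groups were low and close, and they did not overlap, as in 15.3% of all genes. COPT2 differed by -0.46 ± 0.31 (limma adjusted p = 1.0). CSD1 and CSD2 stood apart in 1 library of this time, t-chalcone replicate 3, at 630.5 and 694.1 units, while the other 2 t-chalcone libraries had 340.4 and 370.5 units of CSD1 and 172.6 and 181.9 units of CSD2.

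At 6 h in shoots, FRO4 stood at 39.6, 32.6 and 54.0 units with t-chalcone and 95.4, 69.3 and 67.0 units with EtOH. All t-chalcone values were lower, and the log2 difference was -0.87 ± 0.49 (limma adjusted p = 0.696). FSD1 stood at 2554, 2508 and 2178 units with t-chalcone and 3344, 4512 and 3244 units with EtOH, also without overlap, at -0.60 ± 0.27 (limma adjusted p = 0.440). Both passed without the libraries under 0.5 M, FRO4 with a limma adjusted p of 0.0307 and FSD1 with 0.00428, where 23.2% of all genes passed. None of those libraries is a 6 h shoot library. The log2 differences therefore stayed the same, and only the estimate of spread and the genes tested changed. edgeR called FRO4 (adjusted p = 0.0218), where 12.0% of all genes passed.

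The copper enzymes were higher at that time, without a call. CSD1 stood at 366.7, 448.0 and 326.2 units with t-chalcone and 254.8, 170.6 and 314.9 units with EtOH (0.65 ± 0.38 on the log2 scale, limma adjusted p = 0.728). CSD2 stood at 438.0, 592.9 and 363.2 units with t-chalcone and 213.6, 214.6 and 330.4 units with EtOH (0.88 ± 0.57 on the log2 scale, limma adjusted p = 0.830). Groups did not overlap in 4 of the 6 genes at 6 h, where 37.9% of all genes did the same. COPT2 stood at 37.2, 30.7 and 44.7 units with t-chalcone and 19.2, 37.3 and 22.8 units with EtOH, which overlap. Photosynthesis markers moved at the same time: of 9, 6 fell and 1 rose, where 202 of the 22884 genes tested fell and 153 rose. The summed level of these markers was 153300 to 198400 units with t-chalcone and 240100 to 254800 units with EtOH. Their part in the values of the 6 genes was not tested.

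**Figure D3:**
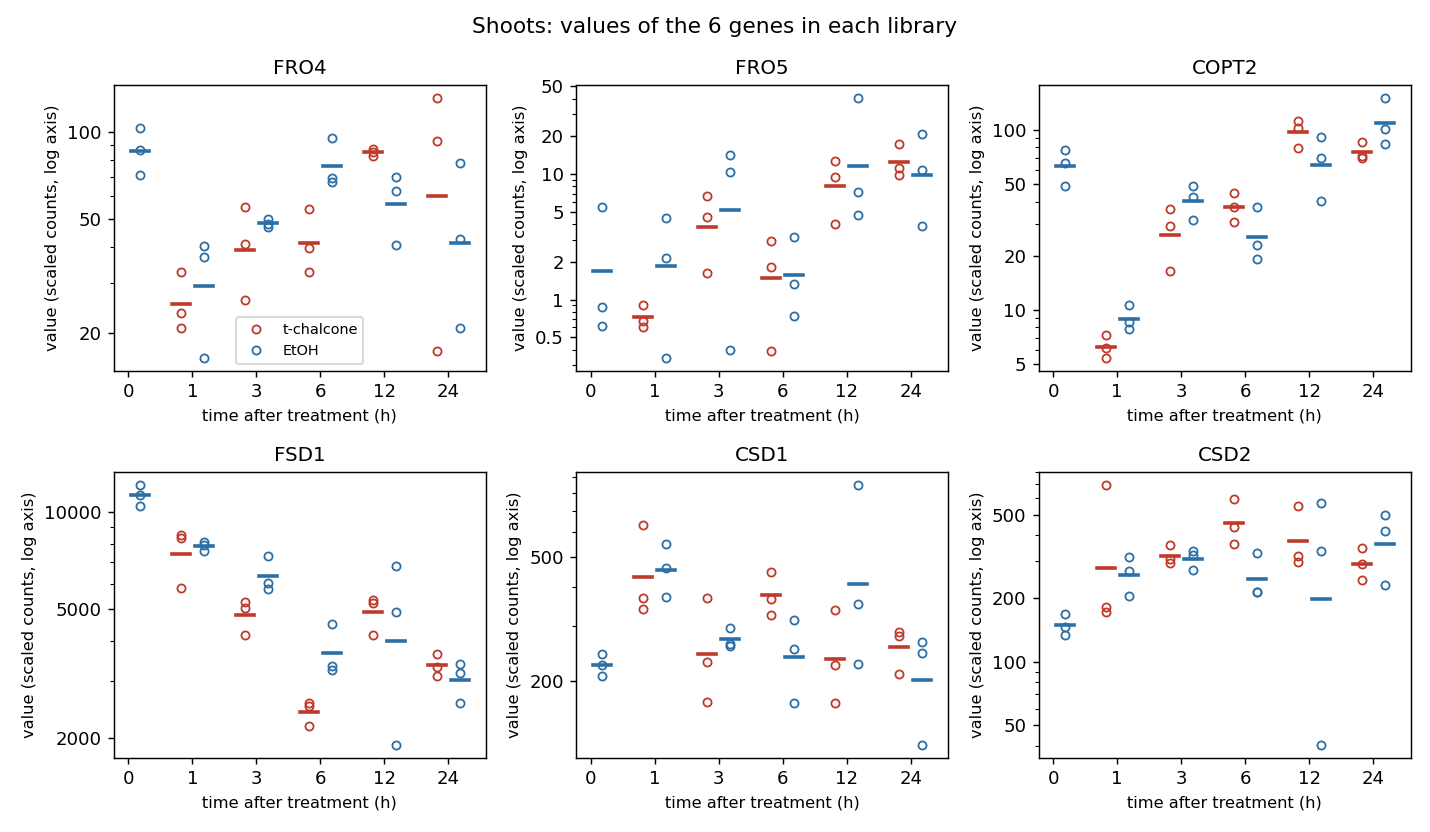
Deposited value (units, logarithmic axis) of each of the 6 genes in every shoot library by hours after treatment, with t-chalcone left of EtOH and 0 h under EtOH alone. Points are libraries and bars are back-transformed means of log2(value + 1). FSD1 lies between 2556 and 3378 units with EtOH at 24 h and between 10460 and 12190 units at 0 h.

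At 12 h in shoots CSD1 stood at 338.0, 171.1 and 224.9 units with t-chalcone and 227.0, 850.4 and 354.4 units with EtOH. The value of 850.4 belongs to the EtOH library under 0.5 M, in which CSD2 was at the lowest value of 40.5 units. In the other 2 EtOH libraries CSD2 stood at 335.8 and 567.7 units. The log2 difference of CSD1 was -0.80 ± 0.38 (limma adjusted p = 0.159), and -0.27 (adjusted p = 0.734) without the libraries under 0.5 M. That of CSD2 was 0.91 (limma adjusted p = 0.259), and -0.22 (adjusted p = 0.841) without them. FRO4 had close values in the 3 t-chalcone libraries at 12 h, 82.5, 84.9 and 87.5 units, all above 69.7, 40.5 and 62.6 units with EtOH, of which 40.5 is a lowest value. Groups were apart in 18.1% of all genes at that time. The log2 difference of FRO4 was 0.59 ± 0.49 (limma adjusted p = 0.360).

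At the remaining shoot times the dismutases did not pass. FSD1 stood at 8534, 8311 and 5841 units with t-chalcone and 8088, 7895 and 7566 units with EtOH at 1 h. At 3 h it stood at 4170, 5051 and 5279 units with t-chalcone and 5772, 7298 and 6022 units with EtOH, without overlap, as in 25.0% of all genes (-0.40 ± 0.27 on the log2 scale, limma adjusted p = 0.9996). CSD2 at 3 h lay between 296.1 and 358.1 units with t-chalcone and between 272.2 and 337.2 units with EtOH. At 24 h the groups of all 6 genes overlapped in shoots, with FSD1 between 3116 and 3637 units with t-chalcone and between 2556 and 3378 units with EtOH.

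FRO5 was near the limit of the data in shoots. Its median was 4.02 units over 33 libraries, and in 15 of them it was at the library's lowest value. No statement on FRO5 in shoots is firmer than that depth. FRO5 passed the F test over EtOH times in shoots (limma adjusted p = 0.0434). The call of EtOH 12 h above 0 h, at 2.21 ± 0.81 (limma adjusted p = 0.0404), rested on a library at its lowest value of 40.5 units and was 1.35 (adjusted p = 0.189) without libraries under 0.5 M.

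EtOH seedlings themselves changed with time, and all comparisons of a later time with 0 h share the 0 h libraries. Time of day and time since EtOH was added cannot be told apart in these comparisons. In shoots, COPT2 stood at 7.84, 10.6 and 8.59 units after 1 h of EtOH, against 77.8, 48.8 and 65.7 units at 0 h. The 1 h libraries were all far lower, by 2.68 ± 0.31 on the log2 scale (limma adjusted p = 4.469e-07), where 13.8% of all genes passed. COPT2 then stood at 31.4 to 49.1 units at 3 h, 19.2 to 37.3 units at 6 h, 40.5 to 91.4 units at 12 h and 83.8 to 150.6 units at 24 h. It passed again at 6 h, at -1.27 ± 0.31 (limma adjusted p = 0.00908).

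FSD1 in EtOH shoots was highest at 0 h, at 10460, 12190 and 11360 units. Its range was 7566 to 8088 units at 1 h, 5772 to 7298 units at 3 h, 3244 to 4512 units at 6 h, 1903 to 6810 units at 12 h and 2556 to 3378 units at 24 h. The later libraries were all below every 0 h library. The log2 difference from 0 h passed at 6 h (-1.63 ± 0.27, limma adjusted p = 0.0001848), at 12 h (-1.50 ± 0.27, adjusted p = 0.0001332) and at 24 h (-1.91 ± 0.27, adjusted p = 6.779e-06), where 6.75%, 29.1% and 18.1% of all genes passed. At 12 h the value of 1903 units is that of the shallow replicate 2, and without it the difference was -0.97 and still passed. The 24 h libraries share the clock time of 0 h and were still the lowest on average. FRO4 in EtOH shoots was lower at 1 h than at 0 h by 1.53 ± 0.49 on the log2 scale (limma adjusted p = 0.0328), a call lost in 4 of the fits that left out 1 library.

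In EtOH roots all 6 genes differed over time (limma F test, highest adjusted p = 0.0216 for FRO4), as did 35.8% of all genes. In EtOH shoots 4 of the 6 did, where 41.3% of all genes did. In roots CSD1 was higher at 24 h, at 1134, 1163 and 1732 units, than at 0 h, at 648.6, 626.5 and 679.7 units, by 1.01 ± 0.23 on the log2 scale (limma adjusted p = 0.00182, where 20.7% of all genes passed). FSD1 was lower at 6 h, at 2751, 2489 and 2550 units, than at 0 h, at 3432, 4595 and 4370 units, by 0.66 ± 0.15 on the log2 scale (limma adjusted p = 0.00215, where 19.1% of all genes passed). COPT2 in EtOH roots at 3 h differed from 0 h by -1.47 ± 0.37 on the log2 scale (limma adjusted p = 0.00535, where 18.8% of all genes passed), and by -0.61 without the shallow replicate 1, when it no longer passed. Against 0 h, 11 calls were made over the 5 times and 6 genes in roots and 7 in shoots, and many of them were lost when 1 library was left out. At single times 17.3% to 25.0% of all genes passed in roots and 5.35% to 29.1% in shoots. Replicate 1 of EtOH roots at 0 h, with 648.6 units of CSD1 and 3432 units of FSD1, is also a library under 0.5 M.

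The 6 genes divided by tissue. In EtOH seedlings over all 6 times, roots minus shoots was 3.24 ± 0.16 for FRO4, 4.02 ± 0.25 for FRO5, 2.67 ± 0.15 for COPT2, 1.71 ± 0.13 for CSD1 and 1.15 ± 0.18 for CSD2 on the log2 scale. FSD1 was lower in roots, at -0.77 ± 0.09. All 6 passed limma's test (highest adjusted p = 7.574e-08), where 67.6% of all genes passed, 34.7% higher and 32.9% lower in roots. In shoots FRO4 was at a library's lowest value in 2 of 18 EtOH libraries and FRO5 in 9.

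Taken time by time, all 6 genes differed between the tissues at 0 h and at 1 h, where 50.1% and 43.7% of all genes did. At 3 h, 6 h and 12 h 5 of the 6 did, where 46.7%, 43.0% and 54.3% of all genes did, and at 24 h 4 of the 6, where 46.8% of all genes did. For COPT2 it was 5.10 ± 0.36 at 1 h and 1.51 ± 0.36 at 24 h. For FSD1 it was -1.46 ± 0.22 at 0 h and -0.09 ± 0.22 at 24 h, and FSD1 did not pass at 6, 12 or 24 h. CSD2 did not pass at 3 h or 24 h.

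Levels of different genes were compared per 1000 exon bases in the 18 EtOH libraries of each tissue. In roots the medians were 2030 for FSD1, 1190 for CSD1, 559 for CSD2, 488 for COPT2, 228 for FRO4 and 35.6 for FRO5. The order of neighbours held in 18, 18, 13, 17 and 18 of the 18 root libraries, so CSD2 and COPT2 are not separated by their spread. In shoots the medians were 3797 for FSD1, 300 for CSD1, 258 for CSD2, 71.6 for COPT2, 24.0 for FRO4 and 1.75 for FRO5. There the order held in 18, 11, 17, 15 and 18 libraries, so CSD1 and CSD2 are not separated.

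**Figure D4:**
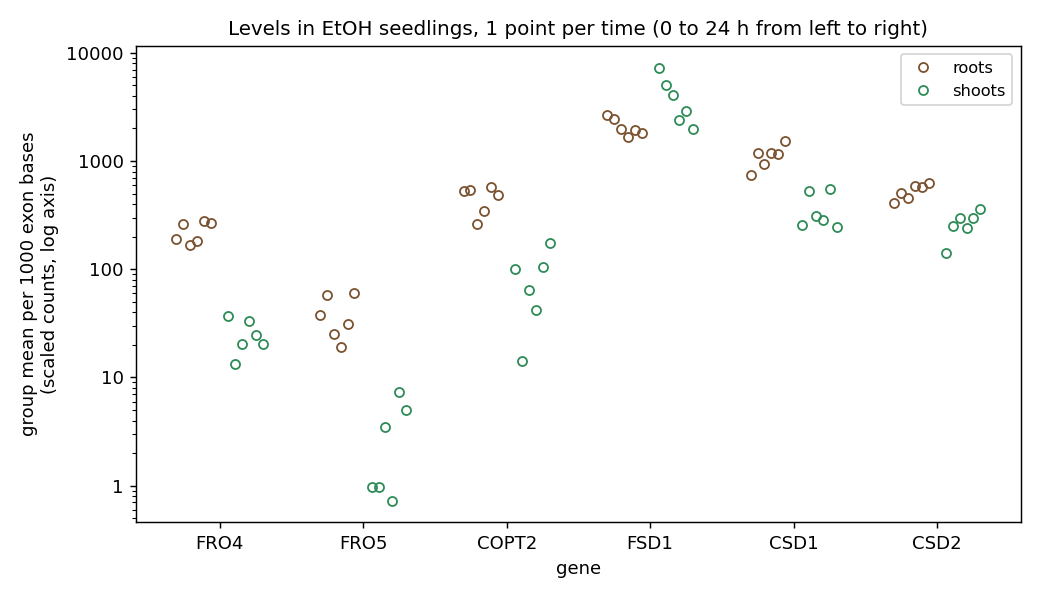
Group mean of the deposited value per 1000 exon bases (logarithmic axis) of the 6 genes in EtOH seedlings, roots left of shoots, with 1 point per time. FRO4, FRO5, COPT2, CSD1 and CSD2 are higher in roots. The FSD1 means are higher in shoots at each time, but close at 24 h (1956 in shoots and 1834 in roots).

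The genes were also compared by the shape of their time courses, as the Pearson correlation of the 11 group means of log2(value + 1) in a tissue. The points share libraries and normalization, and the values are descriptions. In roots, FRO4 had r = 0.85 with FRO5 and 0.84 with COPT2, and FRO5 had 0.82 with COPT2. CSD1 and CSD2 had r = 0.88. FSD1 and CSD1 had -0.48. In shoots, FRO4 and COPT2 had 0.70, CSD1 and CSD2 had -0.03, and FSD1 and CSD2 had -0.64.

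Among 14399 genes in roots with a mean of at least 50 units, those most like FRO4 were FAH1 (r = 0.932), SUR1 (0.918) and iPGAM1 (0.915). FAH1 is the ferulate 5-hydroxylase of lignin and sinapate synthesis, and SUR1 is the C-S lyase of glucosinolate synthesis. Most like COPT2 were 4CL5 (r = 0.973), a 4-coumarate-CoA ligase of phenylpropanoid synthesis, AT5G10770 (0.949) and ARF18 (0.919). FRO5 was most like HAM1 (0.887), CSD1 most like AT5G13970 (0.967), CSD2 most like AT3G48820 (0.938) and FSD1 most like AT3G03280 (0.919). In shoots, among 14581 genes, COPT2 was most like AT1G66130 (0.978), FAF3 (0.977) and AT5G19730 (0.975), and FSD1 most like AT3G14595 (0.953). With 11 points and so many genes, high values are common.

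The wider copper system was read from lists of named genes, with each list given by its counts. In roots at 1 h, 3 of 11 tested genes for copper uptake and reduction fell and 0 rose, where 3.04% of all genes passed and were lower. The median log2 difference of the list was -0.32 against -0.01 over all genes. Those that fell were FRO2, the ferric reductase of iron uptake, YSL3, a transporter of metal chelates, and ZIP2, a metal transporter. FRO2 stood at 70.6, 36.0 and 37.1 units with t-chalcone and 182.3, 136.6 and 85.5 units with EtOH (-1.48 ± 0.41, limma adjusted p = 0.0294), a call lost in 5 of 15 alternatives. YSL3 differed by -0.69 (limma adjusted p = 0.000531) and ZIP2 by -0.65 (adjusted p = 0.0186) on the log2 scale, the ZIP2 call being lost in 4 of 15 alternatives.

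Of 11 regulators, chaperones and pumps of copper, 1 rose at 1 h, where 311 of the 19835 genes tested rose. It was the root copper pump HMA5, by 0.62 on the log2 scale (limma adjusted p = 0.0379), and this call was lost in 6 of 15 alternatives. Of 13 copper proteins, the laccases LAC7 (-1.04) and LAC17 (-0.77) fell, where 3.04% of all genes fell. The LAC17 call was lost in 4 of 15 alternatives. Of 4 other superoxide dismutases and 10 genes of hydrogen peroxide removal, 0 passed limma's test. Of 5 metallothioneins, small metal-binding proteins, MT1C fell by 0.68. Root markers moved too: of 10, 4 fell and 0 rose, against the same 3.04% of all genes that fell. Among the 4 were the root hair wall genes PRP3 (-2.23), COBL9 (-1.76) and EXPA7 (-1.66). The summed level of root markers was 40230 to 52540 units with t-chalcone and 46580 to 66690 units with EtOH. Their part in the fall of the uptake genes was not tested.

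In roots at 3 h, FRO2 stood at 145.3, 102.2 and 148.0 units with t-chalcone, against 1129, 994 and 1662 units with EtOH. Both groups were higher than at 1 h, and the gap between them was wider. The log2 difference was -3.23 ± 0.41 (limma adjusted p = 2.275e-06), called in all 15 alternatives. The metallothionein MT2A rose to 2464, 2747 and 2746 units with t-chalcone, against 423.3, 822.4 and 770.1 units with EtOH, by 2.04 ± 0.23 on the log2 scale (limma adjusted p = 1.972e-07), also in all 15. HMA5 rose to 586.6, 663.7 and 645.1 units with t-chalcone, against 176.4, 324.4 and 321.4 units with EtOH, by 1.25 ± 0.18 (limma adjusted p = 1.263e-05), a call lost in 1 of 15.

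Of the 11 regulators, chaperones and pumps, 3 rose at 3 h and 0 fell, where 10.3% of all genes rose, with a median of 0.32 on the log2 scale against 0.15 over all genes. Besides HMA5 these were RAN1, the copper pump needed for ethylene receptors (0.80), and CCS, the chaperone that loads copper into CSD1 and CSD2 (0.86, limma adjusted p = 0.0343). The CCS call was lost in 10 of 15 alternatives, with 0.30 (adjusted p = 0.361) without libraries under 0.5 M. SPL7, the copper sensor, differed by -0.04 at 1 h and 0.22 at 3 h and did not pass, nor did the copper-regulated factor CITF1 (-0.84, limma adjusted p = 0.0979 at 1 h, and -0.70, adjusted p = 0.0912 at 3 h). CITF1 was called in 4 of 15 alternatives at 1 h and in 1 of 15 at 3 h. Among those at 1 h was edgeR (-0.80, adjusted p = 0.000866), where 12.2% of all genes passed. Of the 13 copper proteins, 3 rose against the same 10.3% of all genes, UCC2 (1.03), LAC4 (0.73) and LAC13 (0.63). Both laccase calls were lost in 10 of 15 alternatives, among them TMM scaling, and 1 of the 13 rose under TMM.

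Of the other lists at 3 h, YSL2 rose by 0.77 among the uptake genes, where FRO2 alone fell, and the YSL2 call held in 9 of 15 alternatives. The catalases CAT1 (1.30) and CAT2 (0.37) rose among 10 genes of hydrogen peroxide removal, CAT2 with its call held in 4 of 15 alternatives and lost under TMM scaling. MT1C fell by 0.47, a call held in 8 of 15. Of 4 other superoxide dismutases 0 passed limma's test. Among root markers SHR rose by 1.03 and PRP3 fell by 1.25. The SHR call held in 7 of 15 alternatives, with 0.36 (adjusted p = 0.176) without the libraries under 0.5 M, and the PRP3 call in 12 of 15. Root markers summed to 60440 to 73590 units with t-chalcone and 54110 to 70700 units with EtOH.

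**Figure D5:**
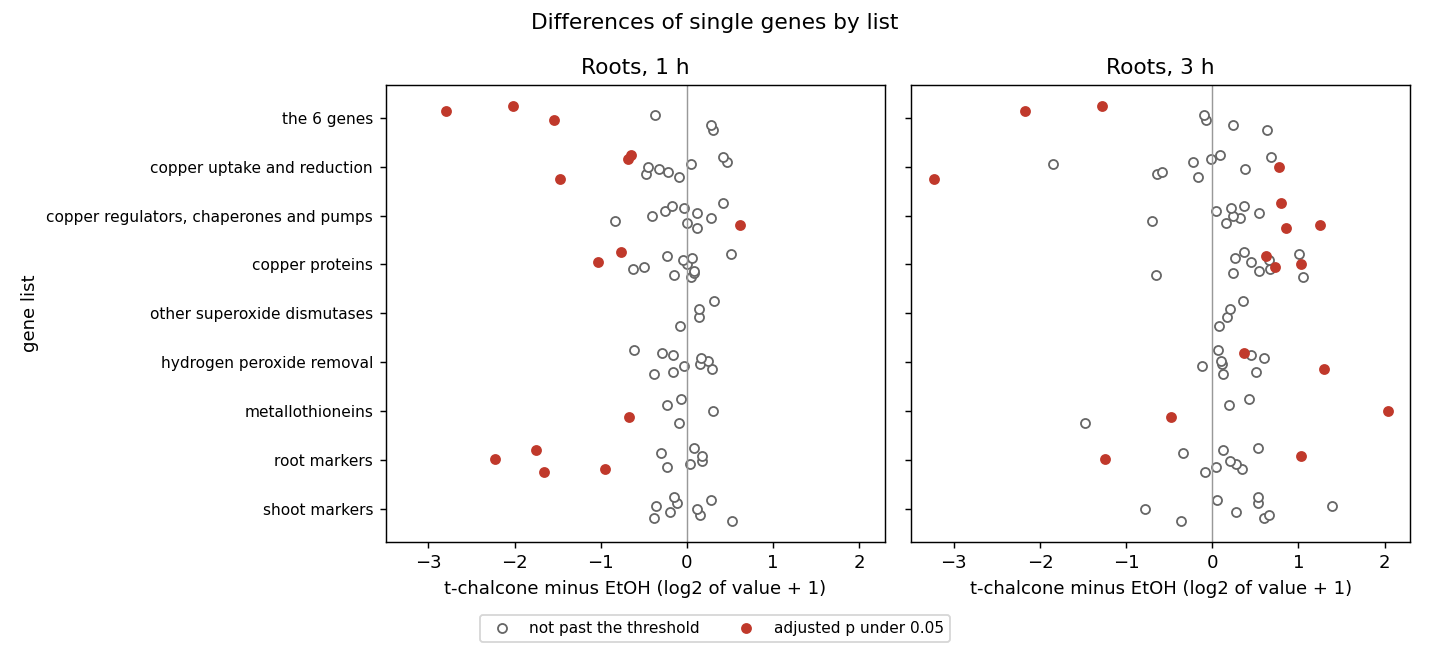
Log2 difference, t-chalcone minus EtOH, in roots after 1 h and 3 h for the genes of each copper-related list, on the log2(value + 1) scale, with 1 point per gene. FRO4 lies at -2.79 after 1 h and at -2.18 after 3 h, and FRO2 at -1.48 and at -3.23.

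At later times in roots, limma called 0 genes of these lists at 6 h and 12 h and, at 24 h, the copper protein BCB (-1.73) and MT1C (-0.81), both lower. In shoots the catalase CAT3 was lower at 6 h (-1.55) and higher at 24 h (1.45). The other copper and superoxide dismutase genes of the lists did not pass in shoots at any time.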

How the data were processed

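RNA sequencing values of 72 columns and 22884 genes were deposited as 1 table. The deposited values are a signal, since the authors divided the count of each gene by a size factor per column. The submitters' processing notes name DESeq2 1.14.1 and TAIR10. The aligner, the counter and any use of strand are not named in the sources used, so reads of overlapping antisense genes cannot be told apart. Every value was a whole multiple of its column's lowest value within 0.01, and those whole numbers gave the depths and the edgeR alternative. The table held no 0, so 1 may have been added to each count before the division. The recovered whole numbers, and the depths and edgeR alternative made from them, may carry that addition. Untreated 0 h columns were identical to EtOH 0 h columns and were counted once, which left 66 libraries, 33 per tissue. Replicate numbers follow accession order and only name a library.

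Genes were kept if 3 or more libraries had a value of 10 or more, 19835 in roots and 22884 in shoots. The fit was limma 3.58.1 with a mean-variance trend on log2(value + 1), with 1 mean per group and all libraries of a tissue, or of both tissues for comparisons between them. Two-sided p-values were adjusted over all genes kept (Benjamini-Hochberg), at a threshold of 0.05, and fold changes on this scale understate changes of low genes. The script was tested on simulated data. Alternatives were TMM scaling, a pseudocount of 10, no filter, a filter at 50, edgeR 4.0.16 in R 4.3.3, array weights, leaving out the 5 libraries under 0.5 M, the 7 libraries with an S number or 1 library at a time, and fitting only the groups compared. Tables and figures were made with Python 3.11.15, pandas 2.3.3, numpy 2.4.6 and matplotlib 3.10.9.

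The 6 genes are named in every comparison. Of the other lists, at most 3 called genes per list and comparison are named, with the largest absolute change, and CCS, SPL7, CITF1, CCH, FRO2, FRO3, CSD3 and FSD2 may be named throughout. The 6 genes, the lists and the tests were chosen with earlier results of these data known. For likeness, the 3 genes with the highest correlation with a member over 11 group means qualify for naming, where means are at least 50 units. Coordinates and sequences are from RefSeq TAIR10.1. Of the lists, 0 of 7 copper microRNA genes and 14 of 15 uptake and reduction genes were in the table used here.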

Additional observations from a re-analysis of the deposited data

Results flagged for a closer look

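The t-chalcone effect on FRO4 after 1 h was stronger in roots than in shoots by a test of the difference itself (limma, -2.59 ± 0.55 on the log2 scale, adjusted p = 0.02788). That call was lost in most of the 12 fits that each left out 1 library, with limma adjusted p-values of 0.0074 to 0.278. FRO4 was also low in shoots at 1 h, at 16.5 to 40.2 units with EtOH. In roots the effect differed between times for FRO4 (limma F test, adjusted p = 7.413e-08) and for FRO5 (adjusted p = 0.0001906). These are differences of an effect between tissues and between times.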

How the results depend on the processing

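The count of the 6 genes called stayed within 1.5 times in 145 of 167 values under settings other than leaving out 1 library, and moved in 22. With array weights, which gave convergence warnings, the count called in roots was 5 at 1 h (of all genes 23.8%) and 1 each after 3 h, after 6 h and after 24 h (2.24%, 5.53% and 14.4%), and in shoots 3 at 3 h and 4 at 6 h (35.3% and 40.4%). It was 5 and 2 for an effect that differs between times in roots and in shoots, and 2 and 3 for the difference between tissues at 1 h and 6 h. In fits of only the groups compared it was 1 in roots at 3 h, 1 at 24 h and 4 in shoots at 6 h (2.07%, 2.25% and 27.2%). Without libraries under 0.5 M it was 1 in roots at 24 h (12.8%), 2 in shoots at 6 h (23.2%), 4 and 1 for an effect that differs between times in roots and in shoots, and 1 for the difference between tissues at 3 h. edgeR gave 1 in shoots at 6 h (12.0%), 4 and 1 for an effect that differs between times in roots and in shoots, and 1 for the difference between tissues at 3 h. Shares of all genes are not given here for the effect by time or the difference between tissues in these settings. Those counts are therefore not read as results about the 6 genes. The same holds for the counts without 1 library, given next, for which the shares of all genes are not given either. Leaving out 1 library in turn gave 2 to 3 in roots at 1 h and at 3 h, 0 to 2 in shoots at 12 h, 2 to 5 for an effect that differs between times in roots, 5 to 6 and 2 to 5 for EtOH over time in roots and in shoots, 0 to 1 for the difference between tissues at 1 h and at 12 h, 6 to 6 for roots against shoots and 0 to 0 elsewhere. Among roots at 1, 3 and 24 h and shoots at 6 h, signs turned for COPT2 in roots at 3 h (-0.93 to 0.61) and FSD1 in roots at 3 h (-0.288 to 0.0485) and FRO5 in shoots at 6 h (-0.37 to 0.38) when 1 library was left out, for CSD2 in roots at 3 h with array weights (-0.0514) and for FSD1 in roots at 24 h with TMM scaling (0.0357). None of these was called, except COPT2 in 3 of 15 alternatives. At the other times signs also turned in several uncalled differences, among them CSD2 (0.91 to -0.22) and FSD1 (0.29 to -0.24) in shoots at 12 h without libraries under 0.5 M, and FRO4 in roots at 12 h (-0.32 to 0.10 over all alternatives). Under settings other than leaving out 1 library, 370 of 407 values of single genes kept direction and side of the threshold. Of the rest, 17 lost their call, 18 gained one and 2 reversed direction. When 1 library was left out, 429 of 480 such values stayed the same, 44 lost their call, 2 gained one and 5 reversed direction. The cause of these changes was not tested. No fit without S-number libraries was possible for roots at 24 h, for the effect by time in roots or for the difference between tissues at 24 h. No paired analysis was possible because replicate numbers were given in accession order. Depth limits FRO5 in shoots and every low gene in the libraries under 0.5 M.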
